A study of Mus musculus with 6 samples.

Results

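The bone morphogenetic protein (BMP) genes described here are 9 genes fixed by name, namely the ligands Bmp2, Bmp4 and Bmp5, the secreted regulators Grem1 and Bmper, the intracellular inhibitor Smad6 and the target genes Id1, Id2 and Id3. All 9 were found by symbol among the 24408 genes of the expression table. The libraries hold mouse lung fibroblasts profiled by 3′ SAGE, which counts a short tag near the 3′ end of each transcript. Untreated cells came from the lungs of untreated Col-GFP mice (a collagen reporter line on C57BL/6) after depletion of cells with lineage markers. Day 2, Day 4 and Day 7 are such Col-GFP cells instilled into the airways of wild type hosts that had been given bleomycin, a lung-injuring drug, 7 days before, and sorted back from the host lungs by their GFP 2, 4 or 7 days later. Acta2 low and Acta2 high are cells of donors carrying both Col-GFP and Acta2-mKO1, transferred into hosts also given bleomycin 7 days before. They were sorted by the signal of the second reporter, which follows the smooth muscle actin gene. The labels state neither the day of that sort, nor the animals per library, nor the donors' ages. The Untreated cells were never transferred, so transfer, the injured host lung, the way of sorting and time cannot be told apart.

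BMPs are secreted ligands that bind pairs of type I and type II receptors and lead to phosphorylation of Smad1, Smad5 and Smad9, which enter the nucleus with Smad4. Gremlin-1 (Grem1) and other antagonists bind the ligands outside the cell, and Smad6 limits the signal inside it. The Id genes are classic targets whose proteins bind basic helix-loop-helix factors and keep them off DNA. In the lung, Bmp4 is known from branching of the developing airways and gremlin-1 from fibrotic tissue.

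With 1 library in each group, differences could not be set against a spread between replicates, and the intervals (all 95%) reflect counting alone. The libraries held 4448065 to 6175334 tags, and 1 tag is worth 0.162 to 0.225 CPM (tags per 1000000 assigned tags). Bulk libraries cannot tell fewer cells of a type from less RNA per cell. Levels are given in CPM, and folds between libraries are CPM ratios divided by the fold of the median gene, because the median of the measured genes lay 0.66 log2 higher in Day 2, 0.31 in Day 4 and 0.39 in Day 7 than in Untreated. That shift was -0.35 for Day 4 against Day 2, 0.07 for Day 7 against Day 4 and -0.14 for Acta2 high against Acta2 low. A gene was measured in a comparison when its mean over both libraries was at least 10 CPM. It was counted as past 4-fold when its difference of log2(CPM + 1), centred on the median gene, was at least 2 in size. All 8 fibroblast markers looked up had tags in every library, but their levels differed. Tcf21 stood at 1230 CPM in Untreated and 21.1 to 97.7 after transfer, and Dcn at 9626 and 1039 to 7723. Col1a1 went the other way, at 310 CPM in Untreated and 776.5 to 7988 after transfer. Col1a2, Col3a1 and Lum were likewise lowest in Untreated, and Pdgfra and Pdgfrb lay on both sides of it. Of 8 endothelial markers, an outside source of Id1, Id3 and Smad6 transcripts, 4 to 6 were at 0 in each library, Tie1 and Emcn were at 0 throughout, and the sum was 2.59 to 3.76 CPM. Egfl7 led that sum after transfer, and the other 7 summed to 2.56 CPM in Untreated and 0.162 to 0.399 in the transferred libraries. The leukocyte markers summed to 0.674 to 1.94 CPM, with Ptprc and Cd68 at 0 throughout. The libraries also differ in a pair of very abundant tags: Zyg11b and Luc7l2 together took 5302 CPM in Untreated and 10995 in Day 7, but 67753 to 97247 in the other 4 libraries.

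The genes that stand apart are Grem1 on the higher side and Bmp4 on the lower side. Their RefSeq promoters are shown because these members differ most from Untreated and in opposite directions. Each run is the 250 bases before the annotated start, 5′ to 3′ on the gene's strand, in build GRCm38.p6 (Grem1 at chr2:113758649-113758898 and Bmp4 at chr14:46390670-46390919, both on the minus strand), and capitals mark letters matched to 3 motifs searched on either strand. The motif GGCGCC and the motif GGAGCC have GC-rich letters related to those bound by BMP Smads, and the motif CAGAC holds the core Smad box. They do not overlap in these 2 windows.
Grem1: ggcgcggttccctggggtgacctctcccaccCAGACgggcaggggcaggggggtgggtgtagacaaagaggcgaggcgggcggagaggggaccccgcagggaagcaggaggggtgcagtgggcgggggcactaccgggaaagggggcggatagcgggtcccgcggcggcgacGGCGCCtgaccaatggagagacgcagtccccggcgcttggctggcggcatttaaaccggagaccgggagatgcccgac
Bmp4: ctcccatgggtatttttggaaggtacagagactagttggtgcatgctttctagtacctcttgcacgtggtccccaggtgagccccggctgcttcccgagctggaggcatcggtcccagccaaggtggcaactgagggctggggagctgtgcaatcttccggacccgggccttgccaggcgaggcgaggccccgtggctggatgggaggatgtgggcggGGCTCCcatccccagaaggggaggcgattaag

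The Grem1 window holds GGCGCC with its first base 78 bases before the start, and CAGAC 219 bases before it. The Bmp4 window holds the reverse complement of GGAGCC, 32 bases before the start. Of 32851 RefSeq promoter windows of this length, 9.59% hold GGCGCC, 26.0% GGAGCC and 42.2% CAGAC. These matches are letters only. A window was at hand for 7 of the 9 genes. GGCGCC also occurs in the window of Id2, GGAGCC in those of Id2, Id3, Smad6 and Bmper, and CAGAC in those of Id3 and Bmp5.

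**Figure D1:**
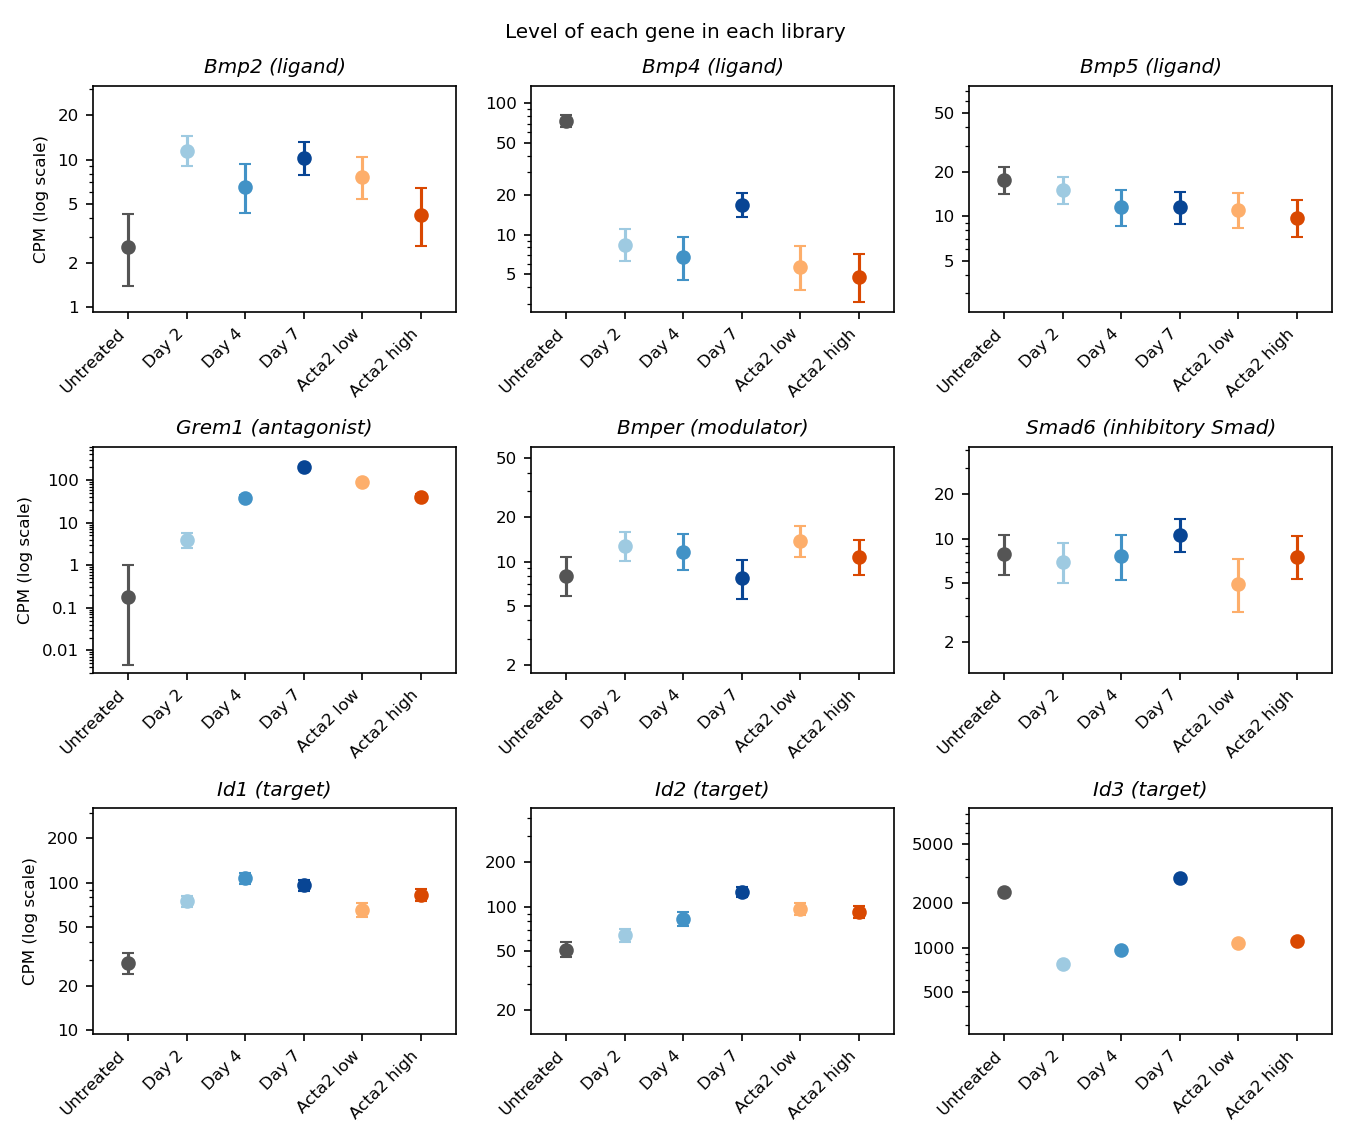
Level of each of the 9 genes (CPM, log scale) in the 6 libraries, with exact 95% Poisson intervals. Grem1 runs from 0.183 CPM in Untreated to 207 at Day 7, Bmp4 is highest in Untreated at 73.5 CPM, and Id3 has a high pair of libraries, Untreated and Day 7.

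Among the ligands, Bmp4 was far lower in every transferred library. Its level was 73.5 CPM in Untreated (402 tags), 8.42 at Day 2, 6.74 at Day 4, 16.9 at Day 7, 5.70 in Acta2 low and 4.79 in the Acta2 high library. Untreated stands alone at the top, Day 7 comes next with an interval of 13.75 to 20.6 CPM that clears those of the other 4 transferred libraries, and the intervals of those 4 overlap. Relative to the median gene Bmp4 was 13.8-fold lower at Day 2 (10.3 to 18.7), 13.5-fold lower at Day 4 (9.31 to 20.3) and 5.675-fold lower at Day 7 (4.54 to 7.14). From Day 4 to Day 7 it was 2.39-fold higher (1.58 to 3.73), which is within 4-fold. It was 17.3-fold lower in Acta2 low (11.8 to 26.1) and 18.4-fold lower in Acta2 high (12.2 to 29.1) than in Untreated. Annotated genes on the opposite strand overlap Bmp4 and Bmp5, 1 on the same strand (Gm47723) overlaps Bmp5, and the labels do not say whether the counting used strand, so reads of such pairs cannot be told apart. Mesothelial markers were also highest in Untreated: the 6 summed to 46.1 CPM there, 38.6 of it from Upk1b, and to 2.73 to 11.2 CPM in the transferred libraries. The endothelial markers other than Egfl7 were likewise highest in Untreated, at 2.56 CPM in sum. Of the fibroblast markers, Tcf21 and Dcn were also highest in Untreated, with Day 7 next. The part of any of these markers in the Bmp4 difference was not tested.

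Bmp2, a ligand close to Bmp4 in sequence, was low in all libraries and lowest in Untreated. It stood at 2.56 CPM in Untreated (14 tags), 11.5 at Day 2 (71 tags), 6.52 at Day 4, 10.3 at Day 7, 7.66 in Acta2 low and 4.19 in the Acta2 high library. The counting interval of Untreated, 1.40 to 4.29 CPM, lies below those of Day 2, Day 4, Day 7 and Acta2 low and overlaps that of Acta2 high. Relative to the median gene Bmp2 was 2.85-fold higher at Day 2 (1.59 to 5.475) and 3.07-fold higher at Day 7 (1.69 to 5.94), and at Day 4 the ratio was 2.06 (1.05 to 4.21). With a mean under 10 CPM it was not measured in any of the 6 comparisons.

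Bmp5 belongs to another branch of the BMP ligands and varied least of the 3. It stood at 17.5 CPM in Untreated, 15.1 at Day 2, 11.5 at Day 4, 11.4 at Day 7, then 11 in Acta2 low and 9.78 in the Acta2 high library, so the highest level was 1.79 times the lowest. Each library's interval overlaps that of its neighbour in this order, and only Untreated (14.2 to 21.4 CPM) and Acta2 high (7.24 to 12.9 CPM) are separate. Bmp5 was, relative to the median gene, 1.84-fold lower at Day 2 (1.37 to 2.47), 1.90-fold lower at Day 4 (1.34 to 2.72) and 2.00-fold lower at Day 7 (1.45 to 2.78).

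The make-up of the ligand tags within libraries differed too. Bmp4 gave 78.5% of the Bmp2, Bmp4 and Bmp5 tags in Untreated (exact binomial interval 74.7 to 82.0%), 24.1% at Day 2 (18.5 to 30.3%), 27.3% at Day 4 (19.2 to 36.6%) and 43.8% at Day 7 (37.2 to 50.5%). Bmp2 gave 2.73% in Untreated (1.5 to 4.55%) and 22.3 to 32.9% in the transferred libraries. Bmp5 had the largest share in 4 libraries, from 43.1% at Day 2 (36.4 to 49.9%) to 52.1% in Acta2 high (41.6 to 62.5%), while at Day 7 it gave 29.6% (23.8 to 36.1%). Shares within a library do not depend on how libraries are scaled to each other, but how well the tag of each gene is captured is not known. Summed over the 3 ligands, the level was 93.6 CPM in Untreated and 18.8 to 38.6 CPM after transfer. Other BMP ligands lie outside this sum. Bmp3 had 84 tags in Untreated, 14 at Day 2, 6 at Day 4 and 32 at Day 7. Acta2 low held 11 Bmp3 tags and Acta2 high 8. Gdf10 stood at 24.7 CPM in Untreated, 20.1 at Day 2, 7.64 at Day 4 and 22.2 at Day 7. In Acta2 low Gdf10 was at 2.55 and in Acta2 high at 7.19 CPM. Bmp7 lay between 2.795 and 5.51 CPM, and the rest looked up had at most 5 tags a library.

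Grem1, the secreted antagonist of Bmp2 and Bmp4, had the widest range of the 9 genes. It had 1 tag in Untreated (0.183 CPM, interval 0.00463 to 1.02), 24 at Day 2 (3.89 CPM, 2.49 to 5.78), 170 at Day 4 (38.2 CPM, 32.7 to 44.4) and 1213 at Day 7 (207 CPM, 196 to 219). Acta2 low held 466 tags (91.5 CPM, 83.4 to 100.2) and Acta2 high 206 (41.1 CPM, 35.7 to 47.1). In order of level, Day 4 and Acta2 high have overlapping intervals, and every other pair of neighbours is separate. Between transferred libraries, where no library is near 0, Grem1 was 12.5-fold higher at Day 4 than at Day 2 (8.14 to 20.1) and 5.17-fold higher at Day 7 than at Day 4 (4.401 to 6.11). Against the single tag of Untreated the ratios are 13.5 at Day 2 (2.20 to 554.5), 169 at Day 4 (29.9 to 6703) and 868 at Day 7 (155.5 to 34312). Smooth muscle and pericyte markers were also lowest in Untreated, where 6 summed to 0.548 CPM, and were 16.2 at Day 2, 54.9 at Day 4 and 61.8 at Day 7, most of it from Actg2. In Acta2 low they summed to 65.0 and in Acta2 high to 135 CPM, the reverse of the order of Grem1 in these sorts. Their part in the Grem1 differences was not tested.

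Bmper binds BMPs outside the cell and is known to limit or aid their action depending on dose. Its range was narrow, at 8.04 CPM in Untreated, 12.8 at Day 2, 11.7 at Day 4, 7.69 at Day 7, 13.8 in Acta2 low and 10.8 in the Acta2 high library. All neighbours in the order of levels overlap in their intervals, and only Day 7 (5.61 to 10.29 CPM) and Acta2 low (10.72 to 17.4 CPM) are separate. Relative to the median gene the ratio to Untreated was 1.01 at Day 2 (0.689 to 1.49), 1.17 at Day 4 (0.770 to 1.79) and 0.732 at Day 7 (0.472 to 1.14). The Day 2 difference changes sign with the scaling, at -0.05 on the centred log2 scale and 0.61 without centring.

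Set against the ligand tags, Grem1 went from the smallest to the largest part. Of the tags of Bmp2, Bmp4, Bmp5, Grem1 and Bmper together, Grem1 made up 0.180% in Untreated (0.00455 to 0.996%), 7.52% at Day 2 (4.88 to 11%), 51.2% at Day 4 (45.7 to 56.7%) and 81.7% at Day 7 (79.7 to 83.7%). The ligands made up 91.9% in Untreated (89.3 to 94.0%), 67.7% at Day 2 (62.3 to 72.8%), 33.1% at Day 4 (28.1 to 38.5%) and 15.2% at Day 7 (13.4 to 17.2%). The intervals of these 4 libraries are separate for both shares. In Acta2 low the Grem1 share was 70.6% (67.0 to 74.1%) and in Acta2 high 58.2% (52.9 to 63.4%). These shares hold for the named genes only. Other antagonists lie outside them, such as Nbl1, at 785 CPM in Untreated and 792 at Day 7, and Fst, at 2.38 and 106.

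**Figure D2:**
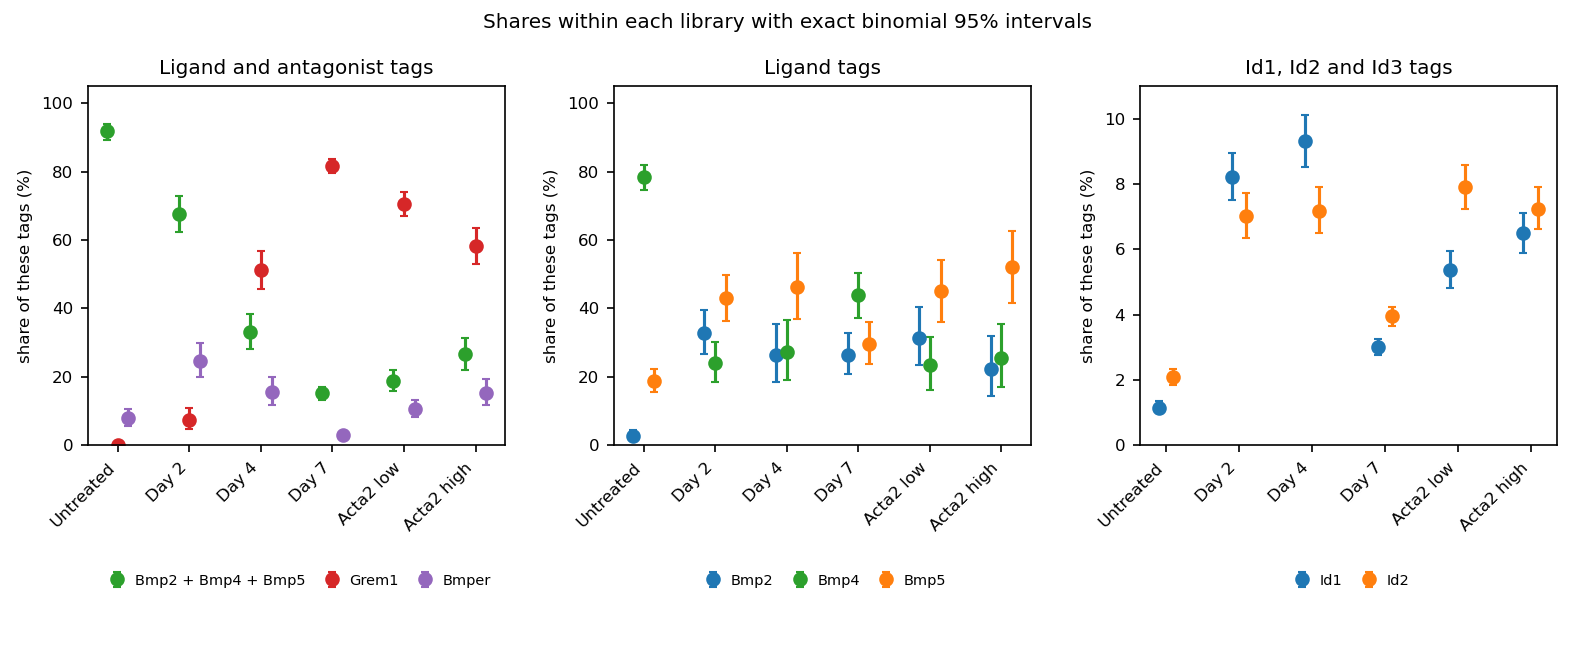
Shares of tags within each library (percent), with exact binomial 95% intervals: ligands, Grem1 and Bmper among their joint tags (left), each ligand among the ligand tags (middle), and Id1 and Id2 among the tags of Id1, Id2 and Id3 (right; Id3 is the rest). The Grem1 share is 0.180% in Untreated and 81.7% at Day 7, and the Id1 share is lowest in Untreated at 1.16%.

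Smad6, which blocks BMP receptor signals inside the cell and is itself a BMP target, was low in every library. It stood at 7.86 CPM in Untreated, 6.96 at Day 2, 7.64 at Day 4, 10.6 at Day 7, 4.91 in Acta2 low and 7.59 in the Acta2 high library. Neighbouring libraries overlap in their intervals, and only Acta2 low (3.18 to 7.25 CPM) and Day 7 (8.12 to 13.6 CPM) are separate. Relative to the median gene the ratio to Untreated was 0.562 at Day 2 (0.3595 to 0.878), 0.785 at Day 4 (0.485 to 1.26) and 1.03 at Day 7 (0.688 to 1.56). In Acta2 low that ratio of Smad6 was 0.467 (0.273 to 0.782) and in Acta2 high 0.803 (0.505 to 1.27). It was not measured in any comparison.

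The Id targets did not share one pattern. Id1 was lowest in Untreated, at 28.5 CPM, and stood at 75.0 at Day 2, 107 at Day 4, 96.2 at Day 7, 66.0 in Acta2 low and 82.9 in the Acta2 high library. The interval of Untreated, 24.2 to 33.4 CPM, is separate from all others, while each pair of neighbours among the transferred libraries overlaps. Libraries further apart can be separate, such as Acta2 low (59.1 to 73.45 CPM) and Day 4 (98.0 to 117.5 CPM). Id1 was, relative to the median gene, 1.67-fold higher at Day 2 (1.39 to 2.01), 3.04-fold higher at Day 4 (2.53 to 3.67) and 2.58-fold higher at Day 7 (2.16 to 3.10), all within 4-fold.

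Id2 rested at 51.4 CPM in Untreated, 64.1 at Day 2, 83.0 at Day 4, 126 at Day 7, 97.0 in Acta2 low and 92.6 in the Acta2 high library. Day 7 is separate from the rest on the high side, and the intervals of Day 4, Acta2 high and Acta2 low overlap. Its ratio to Untreated relative to the median gene was 0.792 at Day 2 (0.678 to 0.926), 1.303 at Day 4 (1.11 to 1.53) and 1.88 at Day 7 (1.64 to 2.16). The Day 2 difference changes sign with the scaling, from -0.34 centred to 0.31 without centring.

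Id3 gave by far the most tags of the 3 and had 2 levels. It was high in Untreated, at 2376 CPM, and in Day 7, at 2970 CPM. In the other libraries it was lower, at 775 CPM at Day 2, 964 at Day 4, 1066 in Acta2 low and 1102 in the Acta2 high library. Counting intervals are separate between all neighbours except Acta2 low and Acta2 high. Relative to the median gene Id3 was 4.83-fold lower at Day 2 (4.67 to 5.00), and the ratio was 0.328 at Day 4 (0.316 to 0.339) and 0.957 at Day 7 (0.9355 to 0.979). From Day 4 to Day 7 it was 2.94-fold higher (2.84 to 3.04). The Day 7 difference from Untreated is -0.06 centred and changes sign to 0.03 under median-ratio scaling. The Day 2 difference of -2.27 is -1.61 without centring and -1.83 without the filter on low values, neither of which is past 4-fold. Id3 is itself among the 100 most abundant genes, so CPM taken without those genes gives no value for it.

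Several other measures of these libraries show the same pair of high libraries. Immediate early genes, a class quickly induced by stimuli and by tissue dissociation, summed over 16 genes to 111946 CPM in Untreated and 41775 at Day 7, against 16600 at Day 2, 9522 at Day 4, 13635 in Acta2 low and 12006 in the Acta2 high library. Fos and Zfp36 led the sum, at 53786 and 24493 CPM in Untreated. In 13 of the 16 genes both Untreated and Day 7 were above the other libraries, and the exceptions were Egr2, Klf6 and Ier3, the last at 843 CPM in Untreated and 4178 at Day 2. The Zyg11b and Luc7l2 tags run the opposite way, low in Untreated and Day 7. So do 8 cell cycle markers, which summed to 3.11 CPM in Untreated and 58.6 at Day 7, against 222 to 275 in the other libraries. Of the epithelial markers, Sftpc, Sftpa1 and Scgb1a1 were highest in Untreated and Day 7, with Sftpc at 20.7 and 14.9 CPM there. Krt8 was not, and the remaining epithelial markers had at most 0.6745 CPM. The part of each of these in the Id3 differences was not tested. Within libraries, Id3 made up 96.7% of the Id1, Id2 and Id3 tags in Untreated (96.4 to 97.0%) and 93.0% at Day 7 (92.7 to 93.4%), against 84.8% at Day 2 (83.8 to 85.7%) and 83.5% at Day 4 (82.5 to 84.5%). Id1 made up 1.16% in Untreated (0.987 to 1.36%), 8.20% at Day 2 (7.50 to 8.95%), 9.31% at Day 4 (8.52 to 10.1%) and 3.01% at Day 7 (2.77 to 3.27%). Id4, the remaining family member, had 1 tag in Untreated, 1 in Acta2 high and none in the other libraries.

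Counted by the 4-fold rule, the members past it were few. Against Untreated at Day 2, 2 of the 6 measured members were past 4-fold, Bmp4 and Id3 on the lower side, where 14.5% of all 4256 measured genes were past it in either direction. At Day 4, 2 of 6 were past it, Grem1 higher and Bmp4 lower, beside 14.5% of 3933 genes. At Day 7 the count was again 2 of 6, Grem1 and Bmp4, beside 7.57% of 4017 genes. Grem1 passed the filter against Untreated only through its high library, as Bmp4 did at Day 2 and Day 4, so these counts follow in part from the filter. These 3 comparisons share the Untreated library. In the step from Day 2 to Day 4, 1 of 6 measured members was past 4-fold, Grem1, beside 0.61% of 4259 genes. At 3.89 CPM on Day 2, Grem1 passed the filter here only through Day 4, so nothing is read from that count. From Day 4 to Day 7 the count was also 1 of 6, Grem1, beside 4.45% of 4132 genes. The median centred difference of the measured members against Untreated was -0.60 log2 at Day 2, -0.26 at Day 4 and 0.42 at Day 7. From Day 2 to Day 4 it was 0.69 and from Day 4 to Day 7 0.84. The median of all measured genes is 0 by construction. These medians are not over the same genes. Against Untreated, Bmper was measured at Day 2 without Grem1, and Grem1 at Day 4 and Day 7 without Bmper. The sets of the steps between days differ too, so no trend is read from the medians.

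**Figure D3:**
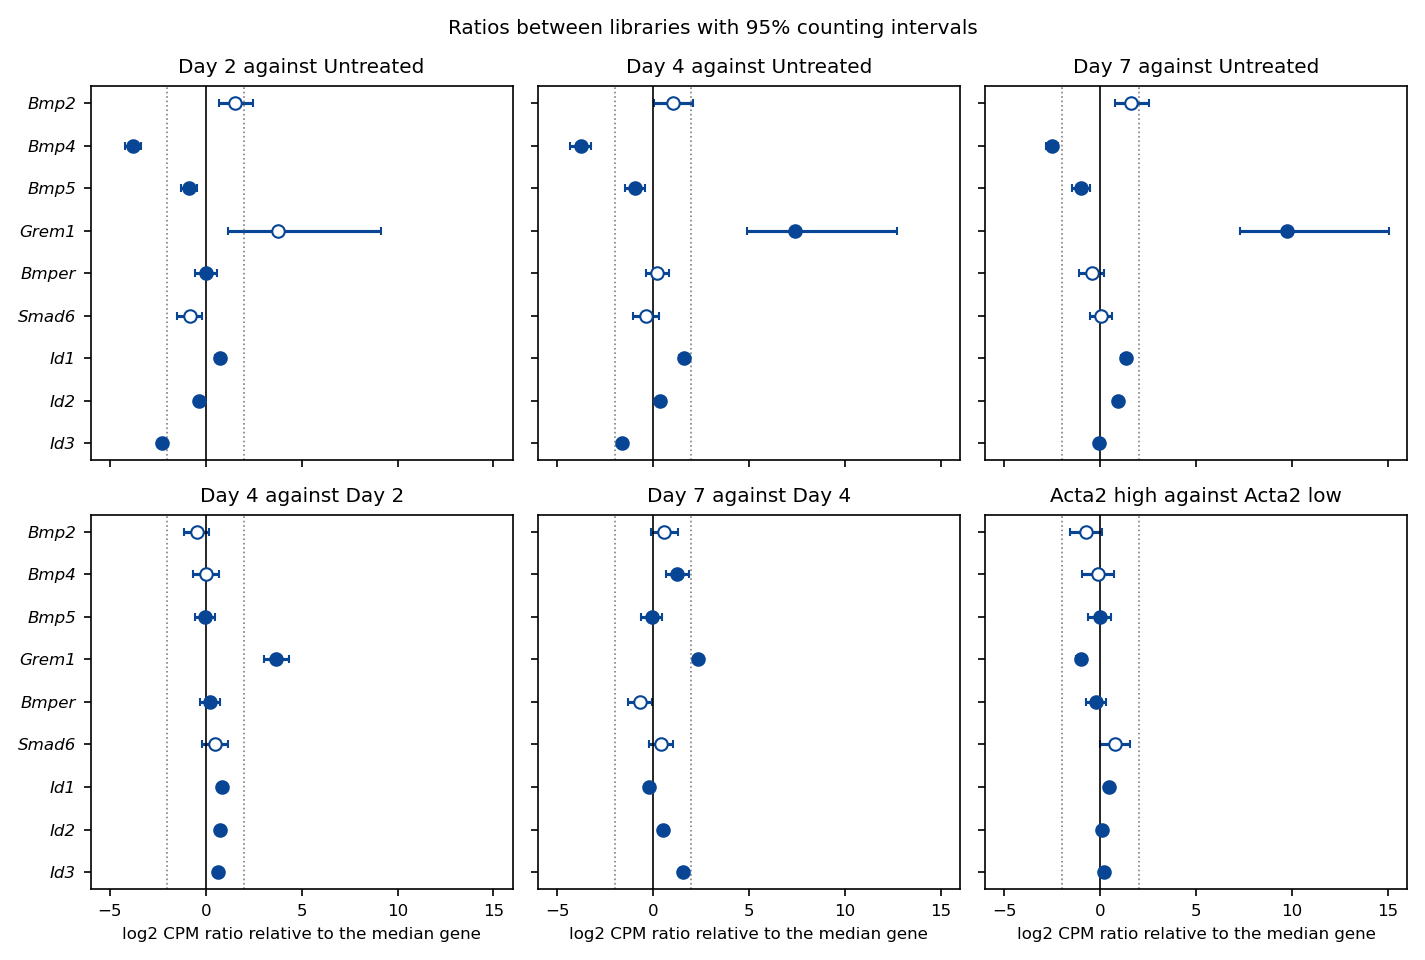
Log2 CPM ratio of each gene relative to the median gene in 6 comparisons, with exact 95% counting intervals; dotted lines mark 4-fold, and open points are genes under a mean of 10 CPM. Of the genes shown, Grem1 is past 4-fold in both steps between days, beside 0.61% and 4.45% of all measured genes. At the first step it passed the filter only through Day 4. None shown is past 4-fold between the Acta2 sorts, beside 0.15% of all measured genes.

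Between the Acta2 sorts, 0 of 6 measured members were past 4-fold, beside 0.15% of 3998 genes. The widest separation was that of Grem1, which was 2.02-fold lower in Acta2 high than in Acta2 low (1.71 to 2.39). Id1 was 1.39-fold higher in Acta2 high (1.20 to 1.605) and Id3 1.14-fold higher (1.10 to 1.18), with Id2 at 1.05 (0.9265 to 1.20). Bmp4, at 0.929 (0.5175 to 1.65), Bmp5, at 0.982 (0.655 to 1.47), and Bmper, at 0.866 (0.5955 to 1.25), have intervals that include the median gene. Bmp2, at 0.604 (0.338 to 1.05), and Smad6, at 1.71 (1.00 to 2.95), rest on 21 to 39 tags a library. Like them, Bmp4 was not measured in this comparison, with 24 tags in Acta2 high and 29 in Acta2 low. The median centred difference of the 6 measured members was 0.03 log2. Keratin-8 (Krt8), an epithelial and mesothelial gene, stood at 265 CPM in Acta2 low and 6.99 in Acta2 high. The other epithelial markers did not share one pattern. Epcam had at most 0.342 CPM and Cdh1 no tag in any library. Sftpc stood at 5.107 CPM in Acta2 low and 2.196 in Acta2 high, and Sftpa1 at 2.75 and 0. Scgb1a1 went the other way, at 0.7857 CPM in Acta2 low and 1.797 in Acta2 high. The 6 mesothelial markers summed to 11.2 CPM in Acta2 low and 3.79 in Acta2 high, with Wt1 at 2.16 against 0, Msln at 1.38 against 0.200 and Bnc1 at 0.393 against 0. The part of such cells in the Grem1 difference was not tested.

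The rest of the pathway was looked up as 56 other genes, of which 20 were measured in at least 1 comparison and 7 had no tag in any library. Against Untreated, 1 of 16 measured was past 4-fold higher and 4 lower at Day 2, beside 14.5% of all measured genes in either direction. At Day 4 it was 1 of 14 higher and 2 lower, beside 14.5%, and at Day 7 1 of 17 higher and 1 lower, beside 7.57%. The gene on the higher side was Fst each time, and the median of the measured genes was -0.96, -0.54 and -0.16 log2. The filter left a different set of genes for each of these medians, so no trend is read from them. Fst, Acvrl1 and Tob1 passed the filter in the comparisons where they were past 4-fold only through their high library, so these counts follow in part from the filter. From Day 2 to Day 4, 0 of 17 were past 4-fold, beside 0.61%, and from Day 4 to Day 7, 1 of 14, Nbl1, on the higher side, beside 4.45%. Between the Acta2 sorts 0 of 13 were past it, beside 0.15%. Chrdl1, Nog, Bmpr1a, Bmpr2, Smad1, Smad4, Smad7, Msx1 and Atoh8, described with the genes past 4-fold, were chosen after their values were seen. So were Bmp3, Bmp7 and Gdf10, described with the ligands.

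**Figure D4:**
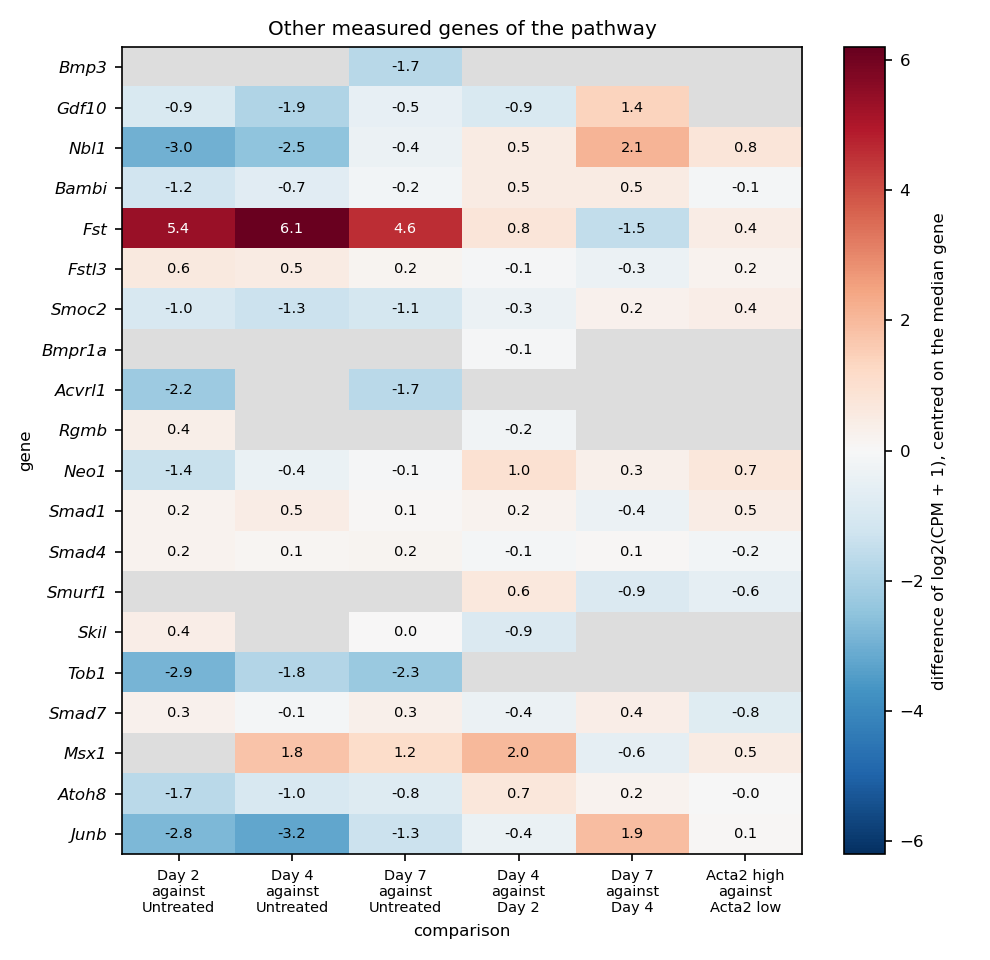
Centred difference of log2(CPM + 1) for the 20 other pathway genes measured in at least 1 of 6 comparisons; grey cells were not measured. Fst is the one gene past 4-fold higher than in Untreated, and Nbl1, Acvrl1, Tob1 and Junb are past it on the lower side in at least 1 comparison with Untreated.

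Of the other antagonists, Fst (follistatin, best known for binding activins) stood at 2.38 CPM in Untreated, 219 at Day 2, 292 at Day 4, 106 at Day 7, 181 in Acta2 low and 223 in the Acta2 high library. Unlike Grem1, it was 2.90-fold lower at Day 7 than at Day 4 (2.64 to 3.20). Nbl1, a secreted protein of the DAN family to which gremlin-1 also belongs, had the levels 785 CPM in Untreated, 153 at Day 2, 173 at Day 4, 792 at Day 7, 120 in Acta2 low and 183 in the Acta2 high library. It was 8.07-fold lower at Day 2 (7.52 to 8.67) and 5.63-fold lower at Day 4 (5.21 to 6.09), and 4.37-fold higher at Day 7 than at Day 4 (4.05 to 4.73), with the same high pair of libraries as Id3. Chrdl1, a chordin-like antagonist, had 80 tags in Untreated, 6 at Day 2, 5 at Day 4, 6 at Day 7, 1 in Acta2 low and 0 in the Acta2 high library. Nog, the antagonist noggin, had 2 to 9 tags a library.

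Among the receptors, Acvrl1, a type I receptor best known from endothelial cells, was past 4-fold at Day 2. It stood at 15.9 CPM in Untreated and at 3.39 to 5.98 in the transferred libraries, and was 5.34-fold lower at Day 2 (3.47 to 8.43). The endothelial markers other than Egfl7 were also lower after transfer, and their part in this difference was not tested. Bmpr1a, the type I receptor of Bmp2 and Bmp4, lay between 6.29 and 12.5 CPM, and the type II receptor Bmpr2 had 1 to 7 tags a library. The Smads that carry the signal were within 4-fold wherever measured, with Smad1 at 8.59 to 16.8 CPM and Smad4 at 8.96 to 17.5 CPM. Tob1, an antiproliferative protein that dampens BMP Smad signals in mouse osteoblasts, was 8.70-fold lower at Day 2 (5.72 to 13.7) and 5.59-fold lower at Day 7 (3.79 to 8.45).

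Of the other target genes, Junb is also an immediate early gene and followed that list, at 9774 CPM in Untreated, 2223 at Day 2, 1308 at Day 4 and 5151 at Day 7. Smad7, the inhibitory Smad shared with TGF-beta signals, lay between 25.4 and 54.1 CPM with no comparison past 4-fold. Msx1, a homeobox target, lay just under the threshold. It stood at 7.86 CPM in Untreated, 10.8 at Day 2, 36.0 at Day 4 and 24.9 at Day 7, a centred difference of 1.99 log2 from Day 2 to Day 4. Relative to the median gene, however, Msx1 at Day 2 was 0.8755 of Untreated (0.588 to 1.32). Atoh8, a transcription factor gene, was highest in Untreated at 26.0 CPM and lay between 12.2 and 19.1 CPM in the transferred libraries, within 4-fold wherever measured.

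The patterns nearest to Grem1 and to Id1 were sought among 3832 named genes with a mean of at least 10 CPM, by the root mean square difference of log2(CPM + 1) after each gene's own mean over the 6 libraries was taken out. For Grem1 the 5 nearest were Acan (0.76), Postn (0.85), Cdkn2b (1.01), Col1a1 (1.03) and Thy1 (1.03). Acan, the cartilage proteoglycan aggrecan, stood at 0.183 CPM in Untreated, 105.4 at Day 7, 24.0 in Acta2 low and 54.7 in the Acta2 high library. All 5 were lower in Acta2 low than in Acta2 high, the reverse of Grem1. Postn (periostin) stood at 27.3 CPM in Acta2 low and 66.9 in Acta2 high, and Thy1 at 18.9 and 24.2. For Id1 the nearest were Eif3f (0.09), Ndrg4 (0.16), Ankrd39 (0.19), Chpf2 (0.19) and Frat2 (0.19). Eif3f, a translation initiation subunit, stood at 36.7 CPM in Untreated, 112 at Day 2, 136 at Day 4 and 122 at Day 7. These distances rest on 6 libraries and describe likeness only.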

How the data were processed

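The authors deposited 1 table of CPM values for 24408 genes in 6 libraries, 1 per group, from 3′ SAGE of PCR-amplified cDNA per the labels' protocols. BWA 0.6.2 and build mm9 are named in the submitters' processing notes. The rule that assigned tags to genes is not given in the sources used here. Each deposited column sums to 1000000 CPM, and 100% of the values were whole multiples of the library's smallest value within 0.001, so tag counts and depths (4448065 to 6175334) were recovered. No molecular identifiers mark PCR copies, so intervals cover counting error only.

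Groups came from the sample titles. With 1 library per group no test across genes was possible, and genes were counted by size, as described with the results. Levels carry exact Poisson, ratios exact conditional (Clopper-Pearson) and shares exact binomial 95% intervals. A fold against 0 tags would use a floor of 3 tags. Named were all 9 members, other pathway genes measured and past 4-fold, and the 5 genes nearest to Grem1 and Id1. Further pathway genes, listed with the results, were named after their values were seen. The members and lists were chosen with earlier results of these data known. Assuming that tags follow the last CATG site, no 21-base tag of a member occurred at that site in another gene's GENCODE transcripts. Alternatives changed the scaling, centring, pseudocount and filter. The size rule was tested on simulated data. Promoters are from RefSeq (GRCm38.p6). Work used Python 3.11.15, numpy 2.4.6, pandas 2.3.3, scipy 1.17.1 and matplotlib 3.10.9.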

Additional observations from a re-analysis of the deposited data

How the results depend on the processing

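For Day 2 against Untreated the number of members past 4-fold went from 2 to 1 without centring and without the filter on low values, where Id3 was no longer past it, and with CPM taken without the 100 most abundant genes, which leaves Id3 out. In the other 5 comparisons the counts were the same under all 5 alternatives, with Bmp4 and Grem1 called in the same direction. Of the 36 member differences, the sign changed in 1 of 35 under median-ratio scaling, 2 of 30 without the 100 most abundant genes, 5 without centring, 0 with a pseudocount of 0.1 CPM and 3 without the filter, and these were differences of Bmper, Bmp5, Id2 and Id3 within 0.34 log2 of the median gene. In size, 18 member differences moved beyond their counting intervals without centring, 10 without the filter and 4 under median-ratio scaling. All 30 without the 100 most abundant genes and all 36 with the pseudocount of 0.1 CPM stayed within them. Leaving Bmper out of the sum moved 7 of 12 Grem1 and ligand shares beyond their intervals, and adding Id4 moved 0 of 18 Id shares. Over all measured genes, the calls split into 299 higher and 316 lower at Day 2, 303 and 267 at Day 4, 136 and 168 at Day 7 and 21 and 5 from Day 2 to Day 4. Without centring they were 578 and 200, 393 and 201, 199 and 133, and 13 and 11. The calls of these 4 comparisons numbered 615, 570, 304 and 26, against 968, 895, 507 and 46 without the 100 most abundant genes and 1075, 951, 536 and 57 without the filter, where more genes were tested. No paired analysis was possible because each group has 1 library, and for the same reason no library could be left out. Bmp2, Bmper and Smad6 rest on 14 to 79 tags a library, which limits what can be seen for them.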
